A study of Mus musculus with 6 samples.

Results

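Integrin subunits and the intracellular adaptor genes of focal adhesions, 41 genes of 54356 in the annotation, were followed in embryonic hearts that lack filamin C. The members were chosen by name, with earlier results of these data known. They were 18 genes for integrin alpha and beta subunits and 23 genes for proteins that couple integrins to actin or signal from them, and the level of each was the sum of the estimated read counts over its transcripts. The question was how FlncgKO hearts differed from control hearts in these genes, and whether receptors and adaptors differed alike. RNA-seq of 6 libraries was used, 3 from control littermates and 3 from Flnc global knockout (FlncgKO) embryos, all of strain C57BL/6 at embryonic day 9.5 and labelled as whole heart. In FlncgKO embryos, exons 9 to 13 of Flnc had been removed by a Cre driven by Sox2, which acts throughout the embryo, so the deletion was not limited to cardiomyocytes. The genotype of the controls was given no further than control. The source of RNA was given in the methods as hearts or as ventricles, and the number of hearts in a library was not stated, so p-values measure the spread between these libraries.

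Integrins are receptors made of 1 alpha and 1 beta subunit that bind extracellular matrix outside the cell and, through adaptors, actin inside it. Talins and kindlins bind the beta tail and switch the receptor to its active form, vinculin and the complex of integrin-linked kinase, PINCH and parvin strengthen the link to actin, and focal adhesion kinase, Src and p130Cas pass on the signal. Filamins, the actin crosslinkers to which filamin C belongs, bind the tails of beta subunits too. In heart muscle these proteins sit at costameres and at cell ends, where the sarcomeres are anchored to the membrane.

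Libraries held 19208859 to 23123255 estimated counts over all transcripts. Levels are CPM, the share of a library's counts, after TMM scaling for RNA composition, and log2 fold changes are FlncgKO minus control. The 16048 genes with enough counts (a minimum of 10 in edgeR's filter) were compared by the quasi-likelihood test of edgeR, p-values were adjusted by Benjamini-Hochberg, and a gene was called at an adjusted p under 0.05. Flnc itself was at 844, 623 and 746 CPM in control replicates 1, 2 and 3, and at 127, 111 and 240 CPM in FlncgKO replicates 1, 2 and 3. The groups did not overlap, and the log2 fold change was -2.21 (standard error, SE, 0.35, edgeR adjusted p = 0.0656, DESeq2 adjusted p = 1.11e-06). FlncgKO replicate 3 had the highest Flnc of the knockout libraries. It was also the lowest FlncgKO library in 54.8% of the 2512 genes with all FlncgKO libraries above all controls. The summed level of 4 Y-linked genes was 117 to 140 CPM in the controls. It was 80.7 CPM in FlncgKO replicate 1 and 3.88 and 4.28 CPM in FlncgKO replicates 2 and 3, so the groups also differed in Y-linked expression. A fit with that level as a covariate can tell it from group mainly through FlncgKO replicate 1. Of the cell type markers, all 12 platelet and megakaryocyte genes were higher by DESeq2 and 0 by edgeR, with a summed level of 13.0 to 20.3 CPM in the controls and 556, 358 and 88.1 CPM in FlncgKO replicates 1, 2 and 3, and none was at 0 in all 6 libraries. The sum of 10 cardiomyocyte markers was 27088 to 31569 CPM in controls and 25600 to 29478 CPM in FlncgKO. Within it DESeq2 called Myh6, the atrial and adult myosin heavy chain, lower and Myh7, the embryonic ventricular one, higher (log2 fold change -0.43 and 0.35, adjusted p = 0.00236 and 0.0137), and edgeR called neither (adjusted p = 0.100 and 0.122). Of 10 endothelial and endocardial markers, edgeR called 2 higher, Sox17 (log2 fold change 1.96, adjusted p = 0.0128) and Emcn (1.24, adjusted p = 0.0353), and 0 lower. DESeq2 called 4 of these higher and 2 lower, and the summed level was 945 to 1130 CPM in controls and 1022 to 1246 CPM in FlncgKO. Erythroid markers, 10 of 10, were above 0 in log2 fold change (median 0.87), with a sum of 3186 to 8527 CPM in controls and 7480 to 11687 CPM in FlncgKO, and 1 of them, Tfrc, was called by edgeR (log2 fold change 0.44, adjusted p = 0.0310). The part of these cell types in the members' values was not tested.

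Of the 41 members, 39 had enough counts to be tested. The beta subunit gene Itgb6 and the kindlin-1 gene Fermt1, both of epithelia, had means of 0.0475 and 0.186 CPM in the controls and 0.218 and 0.903 CPM in FlncgKO and were not tested. Markers of surface ectoderm and other epithelium summed to 129 to 279 CPM in the controls and 245 to 511 CPM in FlncgKO, and their part in these values was not tested. In edgeR, 3 of the 39 members rose in FlncgKO hearts and 0 fell, where 1.06% of all genes tested rose and 0.249% fell, 1.31% in all. The 3 were Tln1, Zyx and Bcar1, all adaptors. Without adjustment, p was under 0.05 in 21 members on the higher side and 1 on the lower, against 13.3% and 8.84% of all genes. DESeq2 called 14 members higher and 1 lower, against 6.17% and 2.29% of all genes. It was the more liberal tool in simulated data, with 60 false calls beside 11 for edgeR. In 19 members all FlncgKO libraries lay above all controls and in 1 below, where 15.7% of all genes lay above and 14.1% below. Most of the tested members thus had small positive differences: 30 of 39 log2 fold changes were above 0, where 51.6% of all genes were. The median was 0.21, beside 0.01 over all genes. As the members were chosen with earlier results of these data known, these shares are a description and not a test of the family. In RNA from whole hearts, fewer cells of a type and less RNA per cell cannot be told apart.

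**Figure D1:**
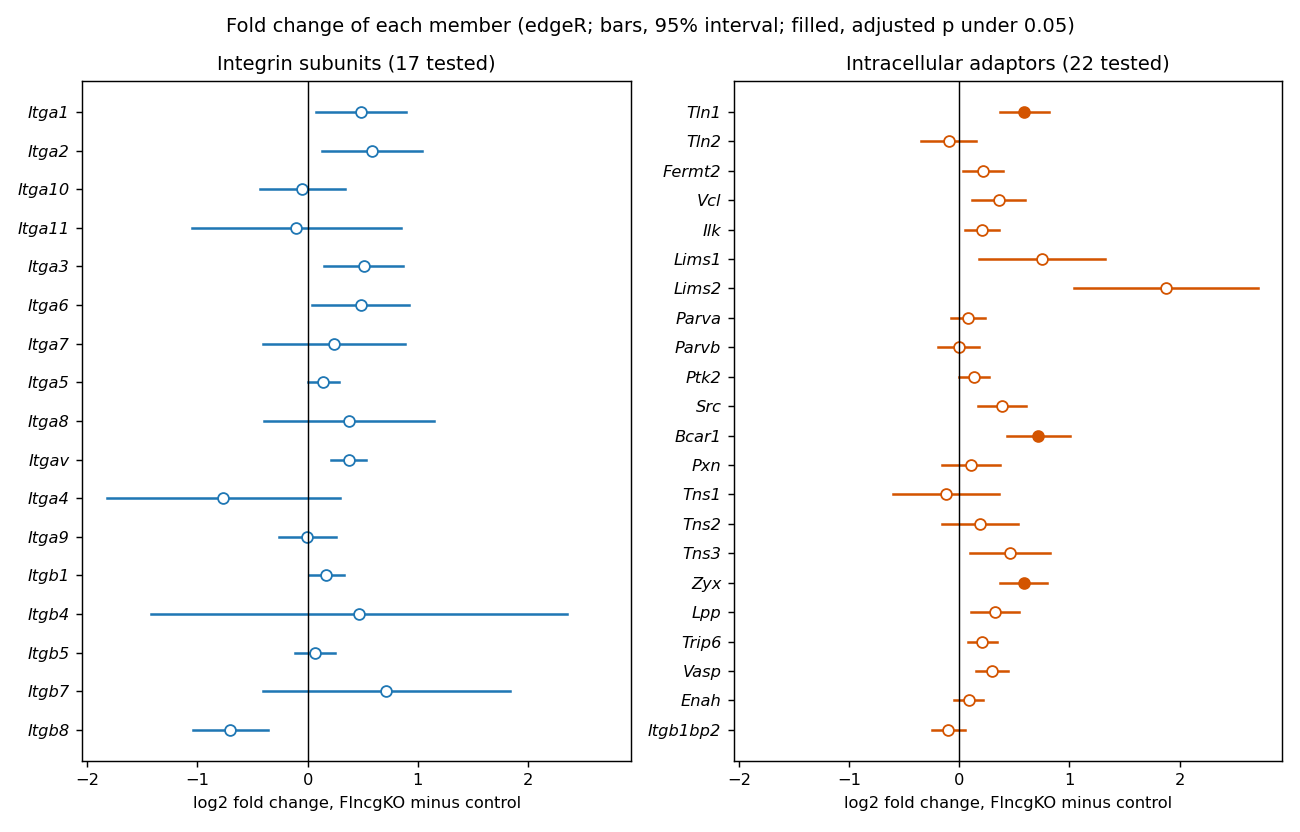
The log2 fold change (FlncgKO minus control, horizontal axis) of each of the 39 tested members is plotted with its 95% interval from edgeR, integrin subunits on the left and adaptors on the right, with filled points at an adjusted p under 0.05. The filled points are Tln1, Zyx and Bcar1, at 0.59, 0.58 and 0.72; Itgb8 is the integrin subunit whose interval lies below 0.

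Among the integrin subunits, 17 of 18 were tested and edgeR called 0 higher and 0 lower, while DESeq2 called 4 higher (Itga1, Itga3, Itga6 and Itgav) and 1 lower (Itgb8), and 7 were higher and 1 lower without adjustment. Over all genes edgeR called 1.06% higher and 0.249% lower, and DESeq2 6.17% and 2.29%. Without adjustment 13.3% of all genes were higher and 8.84% lower. Of the integrin log2 fold changes, 12 were positive and 5 negative, with a median of 0.24. Over all genes 51.6% were positive. The laminin receptors come first because Itga6 was the most abundant of the listed alpha subunits. Itga6, which pairs with beta 1 as a laminin receptor and is also a platelet integrin subunit, was at 668, 683 and 682 CPM in the controls and at 1034, 1112 and 689 CPM in FlncgKO. FlncgKO replicates 1 and 2 stood far above the controls, and replicate 3 lay just above the highest of them. The log2 fold change was 0.48 (SE 0.18, edgeR adjusted p = 0.195, DESeq2 adjusted p = 0.0191). Without FlncgKO replicate 3 the value was 0.66 (edgeR adjusted p = 0.0011), so the edgeR call differed with that 1 library. Itga3, a second laminin receptor subunit, was at 26.8, 25.1 and 24.1 CPM in the controls and 30.8, 32.1 and 45.4 CPM in FlncgKO, with a log2 fold change of 0.51 (SE 0.15, edgeR adjusted p = 0.117, DESeq2 adjusted p = 0.031). Here the groups did not overlap and FlncgKO replicate 3 was the highest. Itga7, the laminin receptor subunit of mature muscle, was at 3.20 to 4.73 CPM in controls and 3.62 to 6.62 CPM in FlncgKO, and the groups overlapped.

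The collagen receptors were low apart from Itga1. Itga1 was at 55.0, 79.0 and 61.3 CPM in the controls and 75.9, 94.9 and 103 CPM in FlncgKO. Control replicate 2 lay above FlncgKO replicate 1, so the groups overlapped, and the log2 fold change was 0.49 (SE 0.17, edgeR adjusted p = 0.168, DESeq2 adjusted p = 0.0283). Itga2, the collagen receptor subunit of platelets and epithelia, was at 2.93, 3.28 and 3.86 CPM in the controls and 4.34, 6.04 and 4.69 CPM in FlncgKO. All FlncgKO libraries were above all controls, with a log2 fold change of 0.58 (SE 0.20, edgeR adjusted p = 0.144, DESeq2 adjusted p = 0.198). Itga10 and Itga11 had log2 fold changes of -0.05 and -0.10 (edgeR adjusted p = 0.898 and 0.912), and Itga11 stayed under 1 CPM in every library.

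Of the alpha subunits that bind the RGD motif of fibronectin and vitronectin, Itgav had the steadiest difference. It was at 93.0, 94.5 and 94.5 CPM in the controls and 120, 133 and 112 CPM in FlncgKO. The controls lay within 2 CPM of each other and every FlncgKO library was well above them. The log2 fold change was 0.37 (SE 0.07, 95% interval 0.21 to 0.53), with an adjusted p of 0.0501 from edgeR and 0.000344 from DESeq2. It was called by DESeq2 whichever library was left out, but not with the Y-linked level as a covariate. Itga5, the fibronectin receptor subunit, was at 174 to 194 CPM in controls and 195 to 211 CPM in FlncgKO, with a log2 fold change of 0.14 (edgeR adjusted p = 0.207), and the groups did not overlap. Itga8 had a log2 fold change of 0.38 (edgeR adjusted p = 0.548) with FlncgKO replicate 3 alone above the controls, at 6.78 CPM. Itga4, which binds VCAM-1 and fibronectin and is found on epicardial and blood cells, was at 56.4, 62.4 and 26.3 CPM in the controls and 37.5, 20.8 and 27.1 CPM in FlncgKO. Control replicate 3 lay with the FlncgKO libraries, and the log2 fold change was -0.76 (SE 0.41, edgeR adjusted p = 0.347, DESeq2 adjusted p = 0.332). Epicardial markers summed to 107, 107 and 76.7 CPM in the controls and 90.0, 75.7 and 94.9 CPM in FlncgKO, and their part in the Itga4 values was not tested. The related Itga9 had a log2 fold change of -0.01, with a 95% interval of -0.26 to 0.25.

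The beta subunits hold the partner of most of these alpha chains. Itgb1, beta 1 integrin, was at 609, 636 and 589 CPM in the controls and 698, 739 and 628 CPM in FlncgKO. FlncgKO replicates 1 and 2 were above the controls and replicate 3 lay among them. The log2 fold change was 0.17 (SE 0.07, 95% interval 0.01 to 0.33), and neither tool called it (adjusted p = 0.200 from edgeR and 0.172 from DESeq2). Without FlncgKO replicate 3 it was 0.23, with an adjusted p of 0.060 from edgeR and 0.0013 from DESeq2. Itgb8, which pairs with alpha v and activates latent TGF-beta, went the other way. It was at 13.8, 16.0 and 12.3 CPM in the controls and 8.99, 7.24 and 9.70 CPM in FlncgKO. All FlncgKO libraries were below all controls, the only member of which this was true, and the log2 fold change was -0.70 (SE 0.15, edgeR adjusted p = 0.0654, DESeq2 adjusted p = 0.00435). So the RGD-binding receptor alpha v was higher and its partner beta 8 lower by DESeq2. Itgb5, another partner of alpha v, had a log2 fold change of 0.07 with a 95% interval of -0.11 to 0.25. Itgb4 and Itgb7 had means of 1.07 and 0.302 CPM in the controls, and their log2 fold changes of 0.47 and 0.71 had standard errors of 0.78 and 0.48.

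**Figure D2:**
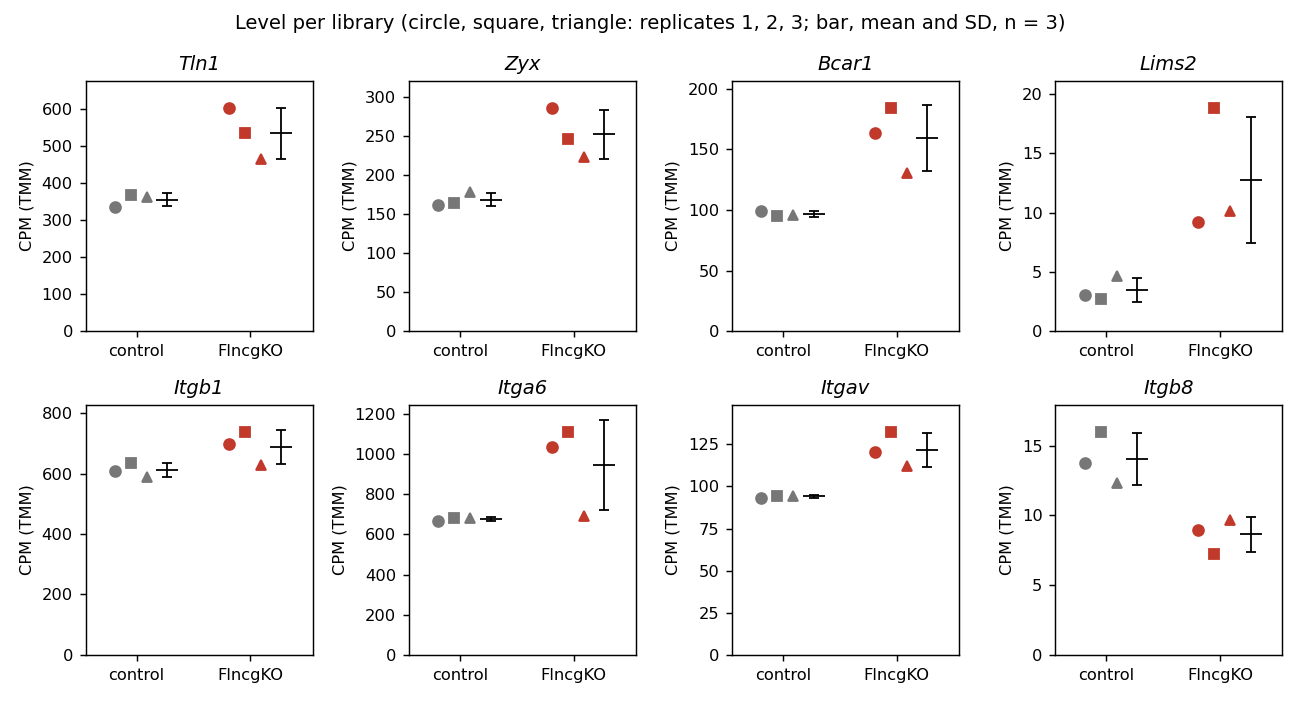
Levels of 8 members (vertical axes, CPM scaled by TMM, each from 0) are plotted per library, grey for control and red for FlncgKO, with the mean and SD of 3 libraries as bars. Tln1, Zyx and Bcar1 show all FlncgKO libraries above all controls, Itga6 in FlncgKO replicate 3 is at 689 CPM beside 1034 and 1112 CPM in the other FlncgKO libraries, and Itgb8 lies below the controls in every FlncgKO library.

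Among the intracellular adaptors, 22 of 23 were tested, 3 rose and 0 fell in edgeR, and DESeq2 called 10 higher and 0 lower. Without adjustment 14 were higher and 0 lower, and in 14 all FlncgKO libraries were above all controls. Over all genes 1.06% rose and 0.249% fell in edgeR, and DESeq2 called 6.17% higher and 2.29% lower. Without adjustment 13.3% of all genes were higher and 8.84% lower, and 15.7% had all FlncgKO libraries above all controls. Tln1, talin-1, which binds the beta tail and activates the integrin, was at 334, 367 and 362 CPM in the controls and 602, 534 and 464 CPM in FlncgKO. Every FlncgKO library was above every control, with replicate 1 the highest. The mean rose from 354 ± 17.7 to 533 ± 69.1 CPM (SD, n = 3 each), a log2 fold change of 0.59 (SE 0.09, edgeR adjusted p = 0.0411, DESeq2 adjusted p = 5.09e-07). The edgeR call was lost without control replicate 1, 2 or 3 (adjusted p = 0.216, 0.198 and 0.0819) and without FlncgKO replicate 1 or 2 (0.0678 and 0.129), while the log2 fold change stayed between 0.49 and 0.68. Over all genes these fits called 1, 1, 95, 24 and 37 higher, beside 170 with all libraries. The Tln1 call was lost too when edgeR was given offsets for transcript length (log2 fold change 0.48, adjusted p = 0.0765) or the Y-linked level as a covariate (0.80, adjusted p = 0.148). With these, 63 and 0 of all genes were called higher. Tln2, talin-2, which is prominent in heart and skeletal muscle, was at 134, 149 and 127 CPM in the controls and 114, 122 and 147 CPM in FlncgKO. The groups overlapped, and its log2 fold change was -0.10 (95% interval -0.34 to 0.15). The ratio of Tln1 to Tln2 in TPM, which is scaled by length, was 3.38, 3.39 and 4.14 in the controls and 6.31, 5.38 and 3.99 in FlncgKO, where replicate 3 lay among the controls.

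Fermt2, kindlin-2, the co-activator of integrins in cardiomyocytes, was at 272, 288 and 271 CPM in the controls and 317, 357 and 289 CPM in FlncgKO. All FlncgKO libraries were above the controls, replicate 3 by a small margin, and the log2 fold change was 0.21 (SE 0.08, edgeR adjusted p = 0.173, DESeq2 adjusted p = 0.124). Vcl, vinculin, which binds stretched talin and holds it to actin, was at 372, 370 and 366 CPM in the controls and 536, 485 and 397 CPM in FlncgKO. The controls were within 6 CPM of each other and the FlncgKO libraries spread widely above them. Its log2 fold change was 0.36 (SE 0.10, edgeR adjusted p = 0.108, DESeq2 adjusted p = 0.0135), and 0.47 without FlncgKO replicate 3 (edgeR adjusted p = 0.0042).

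In the complex of integrin-linked kinase, PINCH and parvin, the PINCH genes stood out from the others. Lims1, PINCH-1, was at 112, 117 and 118 CPM in the controls and 249, 202 and 133 CPM in FlncgKO. The groups did not overlap, and the FlncgKO libraries differed from each other more than replicate 3 differed from the controls. The log2 fold change was 0.75 (SE 0.23, edgeR adjusted p = 0.143, DESeq2 adjusted p = 0.00117). Lims2, PINCH-2, was at 3.02, 2.75 and 4.64 CPM in the controls and 9.21, 18.8 and 10.1 CPM in FlncgKO. Its log2 fold change of 1.87 (SE 0.35, 95% interval 1.04 to 2.71) was the largest of the 39 members, with an adjusted p of 0.0622 from edgeR and 3.06e-06 from DESeq2. DESeq2 called Lims2 whichever library was left out, but not with the Y-linked level as a covariate. Lims2 stayed the minor PINCH: the ratio of Lims1 to Lims2 in TPM was 24.3, 28.7 and 12.7 in the controls and 15.7, 5.54 and 7.73 in FlncgKO, and these ranges overlapped. Ilk, the scaffold of the complex, was at 171 to 178 CPM in controls and 183 to 216 CPM in FlncgKO, with a log2 fold change of 0.20 (edgeR adjusted p = 0.133). The parvin genes Parva and Parvb had log2 fold changes of 0.08 and 0.00, with 95% intervals of -0.07 to 0.23 and -0.19 to 0.18.

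Of the signalling adaptors, Bcar1, the gene of p130Cas, a docking protein that is phosphorylated by Src when stretched, was at 99.4, 95.4 and 95.6 CPM in the controls and 163, 184 and 130 CPM in FlncgKO. Every FlncgKO library was above every control, with replicate 3 the lowest of them. The mean rose from 96.8 ± 2.30 to 159 ± 27.3 CPM (SD, n = 3 each), a log2 fold change of 0.72 (SE 0.12, edgeR adjusted p = 0.0463, DESeq2 adjusted p = 6.96e-07). The edgeR call was lost without control replicate 1, 2 or 3 (adjusted p = 0.216, 0.214 and 0.102) and without FlncgKO replicate 1 or 2 (0.110 and 0.0846), with log2 fold changes of 0.60 to 0.84. Length offsets (0.71, edgeR adjusted p = 0.0667) and the Y-linked covariate (0.75, edgeR adjusted p = 0.368) also ended it. As given for Tln1, these fits called 0 to 95 genes higher in all, beside 170 without these changes. Src, the kinase itself, was at 30.7, 30.7 and 35.9 CPM in the controls and 39.9, 40.5 and 47.0 CPM in FlncgKO. The groups did not overlap, and the log2 fold change was 0.39 (SE 0.09, edgeR adjusted p = 0.0813, DESeq2 adjusted p = 0.0207). Ptk2, focal adhesion kinase, and Pxn, paxillin, had log2 fold changes of 0.14 and 0.11 (edgeR adjusted p = 0.223 and 0.617). The tensins tie integrins to actin at mature adhesions. Of them, Tns3 was at 34.7, 36.8 and 36.9 CPM in the controls and 39.2, 49.3 and 60.8 CPM in FlncgKO, without overlap (log2 fold change 0.46, SE 0.15, edgeR adjusted p = 0.148, DESeq2 adjusted p = 0.0436). Tns1, the most abundant tensin, and Tns2 overlapped between groups, with log2 fold changes of -0.12 and 0.19.

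In the zyxin and Ena/VASP families, whose members gather at strained actin and promote its assembly, all 5 log2 fold changes were positive and 4 of the 5 genes did not overlap between groups, all 4 with FlncgKO above, where 51.6% of all genes had a positive value and 15.7% lay above the controls in every FlncgKO library. Zyx, zyxin, was at 162, 164 and 178 CPM in the controls and 286, 246 and 223 CPM in FlncgKO. All FlncgKO libraries were clear of the controls. The mean rose from 168 ± 8.39 to 252 ± 31.7 CPM (SD, n = 3 each), a log2 fold change of 0.58 (SE 0.09, edgeR adjusted p = 0.0394, DESeq2 adjusted p = 1.04e-06). The edgeR call was lost without control replicate 1, 2 or 3 (adjusted p = 0.216, 0.207 and 0.0678) and without FlncgKO replicate 1 or 2 (0.0637 and 0.119), with log2 fold changes of 0.48 to 0.66. So it was with length offsets (0.51, edgeR adjusted p = 0.0661) and with the Y-linked covariate (0.80, edgeR adjusted p = 0.148). As given for Tln1, these fits called 0 to 95 genes higher in all, beside 170 without these changes. Lpp, a zyxin relative of smooth muscle, was at 285, 300 and 290 CPM in the controls and 352, 421 and 325 CPM in FlncgKO, without overlap (log2 fold change 0.33, SE 0.09, edgeR adjusted p = 0.104, DESeq2 adjusted p = 0.0168). Vasp was at 145, 139 and 155 CPM in the controls and 181, 188 and 170 CPM in FlncgKO. Its groups did not overlap either, and its log2 fold change was 0.30 (SE 0.06, edgeR adjusted p = 0.0648, DESeq2 adjusted p = 0.00254). Trip6 and Enah had smaller log2 fold changes of 0.21 and 0.09 (edgeR adjusted p = 0.0988 and 0.426). Itgb1bp2, the gene of melusin, a muscle protein that binds the beta 1 tail, was at 57.7, 61.9 and 62.5 CPM in the controls and 59.9, 57.0 and 53.0 CPM in FlncgKO. The groups overlapped, and the log2 fold change was -0.10 (SE 0.06, edgeR adjusted p = 0.403, DESeq2 adjusted p = 0.574).

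Set side by side, receptors and adaptors had medians of 0.24 and 0.21, a difference of -0.03 in log2 fold change. They differed in how many passed in either direction. In edgeR it was 0 of 17 receptors and 3 of 22 adaptors (1.31% of all genes). In DESeq2 it was 5 of 17 and 10 of 22 (8.46% of all genes), and without overlap 6 of 17 and 14 of 22 (29.7% of all genes). Sign aside, the median log2 fold change was 0.38 for receptors and 0.21 for adaptors. Control means were 3.96 CPM or less in Itga2, Itga7, Itga8, Itga11, Itgb4 and Itgb7, and among tested adaptors only in Lims2. The part of these low levels in the calls was not tested. The difference between the lists was not tested, and the difference of the medians was 0.27 without FlncgKO replicate 3, when the median of the receptors was 0.00 and that of the adaptors 0.27. Library by library, FlncgKO replicates 1, 2 and 3 exceeded every control in 7, 8 and 10 of the 17 receptors and in 15, 18 and 18 of the 22 adaptors, where 30.5%, 36.0% and 34.9% of all genes did so.

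**Figure D3:**
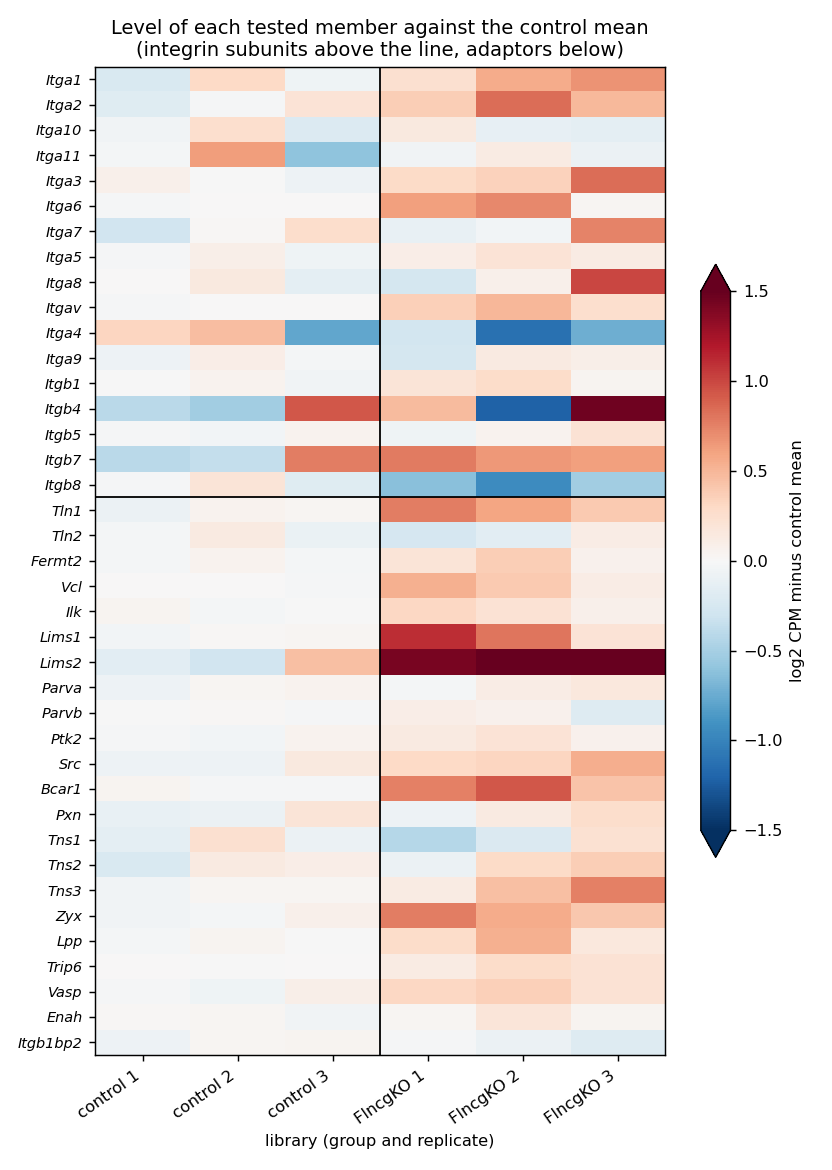
Each cell gives the log2 CPM of a tested member (rows, integrin subunits above the line and adaptors below) in a library (columns) minus the mean of the 3 controls, from -1.5 in blue to 1.5 in red. All 3 FlncgKO cells lie above 0, the control mean, in 15 of 22 adaptors and in 8 of 17 integrin subunits, and below 0 in 1 and 2. They lie above every control in 14 and 5, where 15.7% of all genes did. Of these 19 members, the red is palest in FlncgKO replicate 3 in 12 (63.2%), beside 54.8% of all such genes.

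Talin-1, vinculin, zyxin, PINCH-1, integrin-linked kinase and alpha 6 integrin are all present in platelets as well as in heart. The platelet marker sum was highest in FlncgKO replicate 1, then 2, then 3. Of the 19 members with all FlncgKO libraries above the controls, 5 (26.3%) had this order: Tln1, Vcl, Ilk, Lims1 and Zyx. So had 453 of all 2512 such genes (18.03%). By list it was 5 of 14 adaptors (35.7%) and 0 of 5 integrin subunits. The difference between these shares was not tested. Bcar1, Itgav, Itga6, Vasp, Lpp and Fermt2 were highest in FlncgKO replicate 2, and Itga3, Src and Tns3 in replicate 3. Of the FlncgKO libraries, replicate 3 had the lowest platelet sum. It had the highest sums of epithelial, mesenchymal, erythroid, macrophage, epicardial and endoderm markers, at 511, 375, 11687, 36.1, 94.9 and 32.9 CPM. Krt8 and Krt18 held 316 and 172 of the 511 CPM, and Col1a1 held 215 of the 375 CPM. Of the 7 mesenchymal markers, 5 log2 fold changes were positive and 2 negative. The part of these cell types in the values was not tested. With the Y-linked level as a covariate, edgeR called 0 members (p before adjustment was under 0.05 in 9 that were higher and 1 that was lower) and 0 genes in all, and DESeq2 called 5 members higher (Bcar1, Lims1, Tln1, Vcl and Zyx).

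Levels between genes can be compared only per length, for which the deposited TPM were summed over the transcripts of a gene. By all transcripts, Itga6 led the members at 366 ± 3.77 TPM in the controls and 511 ± 128 TPM in FlncgKO (SD, n = 3 each). Itgb1 followed at 305 ± 14.8 and 348 ± 29.3 TPM. These values put 1 alpha and 1 beta subunit far ahead of the other listed subunits. In the controls Itga6 held 70.7% of the summed TPM of the listed alpha subunits. It was followed by Itga5 at 13.0%, Itgav at 5.99% and Itga9 at 3.51%. Itgb1 held 91.6% of that of the listed beta subunits. Blood cell integrins such as Itga2b and Itgb3 are not members and are not in these sums. In FlncgKO replicates 1, 2 and 3 the share of Itga6 was 77.1%, 77.3% and 68.0%. When only protein-coding transcripts of Itga6 were taken, the controls were at 164 TPM and a share of 54.1%, below Itgb1 at 304 TPM for its protein-coding transcripts, because a large part of its TPM was assigned to a transcript that encodes no protein. Among the adaptors Fermt2 and Ilk were the most abundant in the controls, at 175 ± 8.04 and 172 ± 6.53 TPM. Their neighbours Vasp, Zyx and Vcl, at 124 ± 7.55, 123 ± 5.17 and 116 ± 3.64 TPM, were within their spread of each other, and so were Itgb1bp2 and Tln1 at 83.4 ± 3.24 and 78.8 ± 4.03 TPM. Tln1 was at 0.26 of the Itgb1 level in the controls and 0.32 in FlncgKO. By all transcripts the members ranged from 366 TPM for Itga6 to 0.0175 TPM for Itgb6, and Itga6 was ahead of Itgb1 only on this count.

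**Figure D4:**
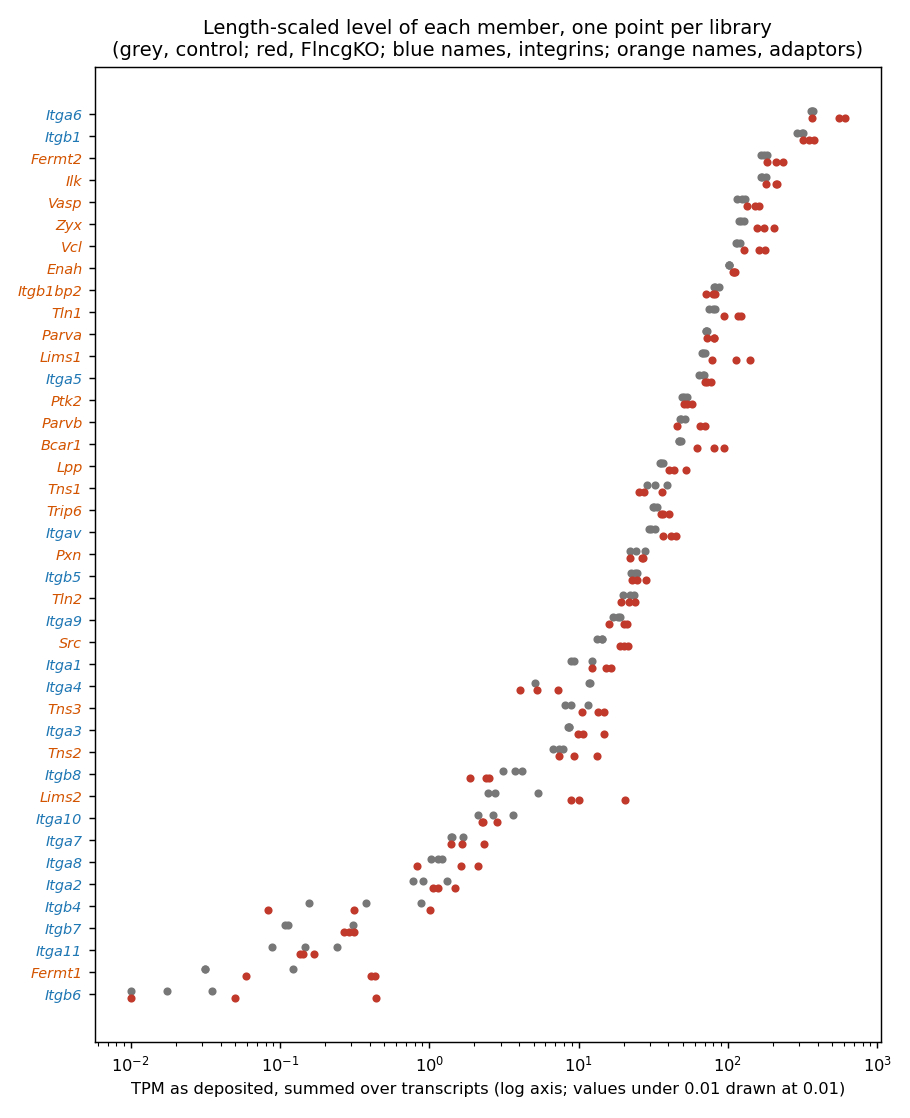
The summed TPM of all 41 members (horizontal log axis) is plotted with 1 point per library, grey for control and red for FlncgKO, in the order of the control mean. Itga6 and Itgb1 stand at the top with control means of 366 and 305 TPM, and Itgb4, Itgb7, Itga11, Fermt1 and Itgb6 lie under 0.5 TPM on average in the controls.

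For Bcar1 the difference was not even across its transcripts, and the sequences before its start sites are shown for that reason. Bcar1 lies on the minus strand of chromosome 8 (GRCm38, 111710474 to 111743809), and RefSeq places 1 start at its distal end, at 111743849, and 1 inside the gene, at 111732136. Transcripts of the internal start summed to 30.4, 23.3 and 30.4 TPM in the controls and 54.4, 68.0 and 46.0 TPM in FlncgKO. Transcripts of the distal start summed to 18.4, 24.0 and 16.7 TPM in the controls and 25.8, 26.3 and 16.3 TPM in FlncgKO. The internal set was above all controls in every FlncgKO library, while the distal set overlapped, with FlncgKO replicate 3 the lowest of all 6. These sums rest on salmon's division of reads between transcripts that share most exons, and the difference between them was not tested. The 250 bases before each start, from RefSeq on GRCm38.p6, run 5' to 3' on the minus strand. The internal window (chr8:111732137-111732386) lies in an intron of the long transcript Bcar1-201, and the distal window (chr8:111743850-111744099) overlaps no annotated transcript. No letters are in capitals because neither holds the motifs searched below. G and C made up 67.2% of the internal window, with 21 CpG pairs, and 65.6% of the distal window, with 22, beside a median of 52.4% and 6 over all windows.
Bcar1 internal start: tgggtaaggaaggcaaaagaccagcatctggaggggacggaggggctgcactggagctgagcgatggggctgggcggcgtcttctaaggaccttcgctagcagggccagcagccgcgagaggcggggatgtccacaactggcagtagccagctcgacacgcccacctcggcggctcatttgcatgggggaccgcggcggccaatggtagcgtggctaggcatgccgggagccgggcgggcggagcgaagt
Bcar1 distal start: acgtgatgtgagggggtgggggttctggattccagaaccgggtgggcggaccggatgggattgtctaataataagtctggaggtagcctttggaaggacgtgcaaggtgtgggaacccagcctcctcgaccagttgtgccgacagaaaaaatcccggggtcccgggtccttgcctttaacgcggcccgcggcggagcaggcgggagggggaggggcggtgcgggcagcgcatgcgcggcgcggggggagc

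**Figure D5:**
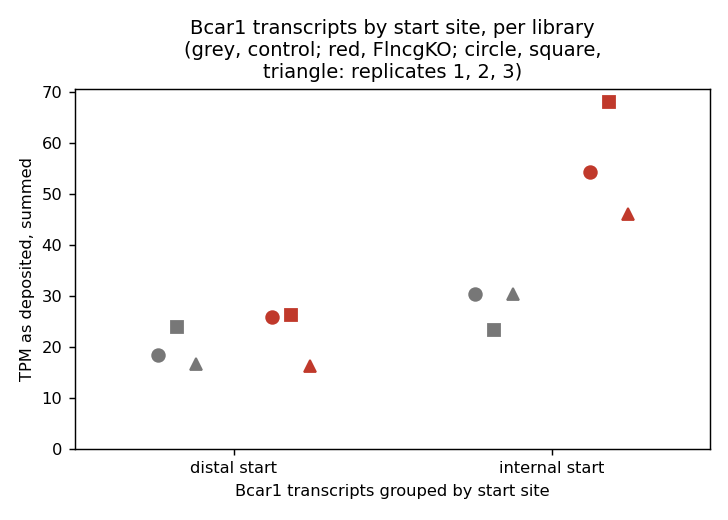
The summed TPM of Bcar1 transcripts (vertical axis) is plotted per library for those of the distal and those of the internal start, grey for control and red for FlncgKO. The internal set runs from 46.0 to 68.0 TPM in FlncgKO against 23.3 to 30.4 TPM in control, and the distal set overlaps between groups.

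The 250 bases before each RefSeq start were searched on both strands for 3 motifs of transcription factors that act on actin and adhesion genes: the AP-1 motif TGANTCA, the MCAT box CATTCC bound by TEAD factors, and the CArG box bound by serum response factor. RefSeq windows were at hand for 32 of the 41 members, 39 windows in all, and not for Itga6, Itga7, Itgb1bp2, Itgb4, Lims2, Parva, Ptk2, Pxn and Tln2. The AP-1 motif was in 1 of the 39 windows, that of Zyx, where 6.75% of all 32851 windows held it. The MCAT box was in 5 (Itga10, Itgb1, Lpp, Trip6 and Vcl), where 12.6% of all windows did. The CArG box was in 3 (Fermt2, Itgb6 and Vcl), where 1.47% of all windows did. A match is a description of the letters only. The match of Zyx began 121 bases before the RefSeq start, and it is shown because Zyx was the called member with a match, with 10 bases on each side (chr6:42349697-42349723, plus strand, GRCm38.p6) and the motif in capitals. This stretch is not outside all transcripts, since it lies within Zyx-204, whose exon covers 9 of its 27 bases, and within the antisense transcript Gm44284-201, of which it touches no exon.
Zyx, AP-1 match: gtgcggacagTGAGTCAgttctccagc

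Other transcripts followed the gene sums less evenly. Of the Zyx transcripts, Zyx-207 was at 70.8, 72.2 and 82.5 TPM in the controls and 144, 138 and 105 TPM in FlncgKO, without overlap. Zyx-201, which starts 41 bases further on, was at 29.1, 30.6 and 28.1 TPM in the controls and 25.2, 12.4 and 25.2 TPM in FlncgKO, all below the controls. The full-length transcript of Tln1 carried its rise, with 53.0, 57.9 and 56.4 TPM in the controls and 95.5, 87.3 and 72.5 TPM in FlncgKO.

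A further 96 genes of integrin adhesion, not members, were listed for comparison, and 88 were tested. In edgeR 5 rose and 0 fell, DESeq2 called 20 higher and 1 lower, and the median log2 fold change was 0.14, where edgeR called 1.06% of all genes higher and 0.249% lower and DESeq2 6.17% and 2.29%. Of 27 other adaptors and scaffolds tested, Nedd9, a relative of p130Cas, rose from 11.2, 13.4 and 13.1 CPM in the controls to 27.3, 40.4 and 26.1 CPM in FlncgKO (log2 fold change 1.32, SE 0.18, edgeR adjusted p = 0.0372). Actn4, an alpha-actinin that crosslinks actin at adhesions, rose from 385, 383 and 378 CPM to 497, 530 and 470 CPM (log2 fold change 0.39, SE 0.05, edgeR adjusted p = 0.0348). In both genes the groups did not overlap. Csrp1 and Fblim1, LIM proteins of actin bundles and adhesions, had log2 fold changes of 0.29 and 0.30 (edgeR adjusted p = 0.0510 and 0.0934).

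Of 25 signalling genes, 0 were called in edgeR (p before adjustment was under 0.05 in 3 that were higher and 2 that were lower) and 1 in DESeq2, the Arf regulator Asap1 (log2 fold change 0.39, SE 0.07, edgeR adjusted p = 0.0501). Fyn and Shc1 had 0.30 and 0.27, and Crkl, an adaptor that binds p130Cas, -0.14 (edgeR adjusted p = 0.0920, 0.128 and 0.146). Of 17 genes of integrin activation and trafficking, the tetraspanin Tspan4 rose from 13.0, 14.3 and 14.3 CPM to 19.5, 19.5 and 21.7 CPM (log2 fold change 0.54, SE 0.09, edgeR adjusted p = 0.0393). Cd9 and Slc3a2, which associate with integrins, had 1.08 and 0.50 (edgeR adjusted p = 0.0501 and 0.0683). Rap1b, the GTPase that brings talin to integrins in platelets, was named after its values were seen. It was at 133, 124 and 139 CPM in the controls and 322, 233 and 150 CPM in FlncgKO, in the order of the platelet markers (log2 fold change 0.83, edgeR adjusted p = 0.189).

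Of 9 genes for integrins and the kindlin of blood cells, 5 were tested, and their median log2 fold change was 2.25. Itga2b and Itgb3, which form the fibrinogen receptor of platelets, were at 11.9 to 18.5 and 51.3 to 77.6 CPM in the controls. In FlncgKO replicates 1, 2 and 3 they were at 204, 118 and 39.8 CPM and at 464, 285 and 116 CPM, in the order of the platelet marker sum. Their log2 fold changes were 3.01 and 2.13, with adjusted p of 0.108 and 0.135 from edgeR and 0.00021 and 0.00457 from DESeq2. Fermt3, the kindlin of blood cells, was at 4.15 to 7.29 CPM in the controls and 122, 68.1 and 19.7 CPM in FlncgKO (log2 fold change 3.63, SE 0.81, edgeR adjusted p = 0.103), beside the 0.21 of Fermt2. Itgb2, the beta subunit of leukocytes, rose from 1.19, 0.965 and 1.64 CPM to 8.67, 5.87 and 3.60 CPM (log2 fold change 2.25, SE 0.36, edgeR adjusted p = 0.0411). Itgal, an alpha subunit of leukocytes, stayed under 2 CPM in every library and had 0.38 (edgeR adjusted p = 0.655).

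Among 14 integrin ligands outside collagens and laminins, Emilin1, a ligand of alpha 4 and alpha 9 integrins, rose from 82.6, 92.5 and 85.9 CPM to 112, 111 and 107 CPM (log2 fold change 0.34, SE 0.06, edgeR adjusted p = 0.0486). Npnt, the ligand of alpha 8, had 0.53 and Ltbp1, which anchors latent TGF-beta in the matrix, 0.42 (edgeR adjusted p = 0.0827 and 0.0986). Thbs1, thrombospondin-1, which platelets store, had a mean of 55.6 CPM in the controls and was at 894, 607 and 206 CPM in FlncgKO (log2 fold change 3.36, edgeR adjusted p = 0.0850). Vcam1, a ligand of alpha 4 and the ligand that DESeq2 called lower, was at 135 to 137 CPM in the controls and 110 to 122 CPM in FlncgKO, below them in every library (log2 fold change -0.21, adjusted p = 0.0994 from edgeR and 0.0291 from DESeq2).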

How the data were processed

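RNA-seq of 6 mouse heart libraries at embryonic day 9.5 was used, with group and replicate taken from the labels. The libraries were made from polyA RNA with a stranded kit. The authors quantified reads against GENCODE M22 transcripts on GRCm38.p6 with salmon, whose version is not given in the sources used here, and tested genes with DESeq2 1.22.2, per the labels. The deposited files hold estimated counts, TPM and effective lengths per transcript. For this report, the counts of a gene's transcripts were added up through GENCODE M21 and rounded to whole numbers. The 0.3704% of transcripts without a gene in M21 were left out. TPM as deposited were summed in the same way and were used to compare genes by length and transcripts. They also weighted the transcripts' effective lengths in the length offsets. There were 0 columns of other samples.

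Counts were tested with edgeR 4.0.16 in R 4.3.3 (TMM, filterByExpr with a minimum count of 10, robust quasi-likelihood fit on group, Benjamini-Hochberg adjustment over 16048 genes, threshold 0.05). DESeq2 1.42.0 was the alternative tool. Others were other scalings and filters, offsets for transcript length, a replicate block, the level of Y-linked genes as a covariate and leaving out each library. DESeq2 without each library, with the Y-linked level and with length offsets was added after seeing the data. Standard errors are the log2 fold change divided by the square root of the F statistic, and intervals are at 95%. In simulated data for FlncgKO against control with 16048 genes, a small part of the genes was changed. Of genes changed by 0.5, 1 and 2 on the log2 scale, edgeR called 18%, 52% and 88%, with 11 false calls. DESeq2 called 26%, 62% and 88%, with 60 false calls. It was thus the more liberal tool, and a member called by DESeq2 alone is the less certain call.

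The members and lists were chosen with earlier results of these data known. Values in every library were given for members called by edgeR or DESeq2, for the member of smallest p in each subgroup and for Itgb1, Fermt2, Tln1 and Vcl. Outside the members they were given for called genes and up to 4 others per set. Cell type markers were checked for 9 cell types, and promoter windows came from RefSeq.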

Additional observations from a re-analysis of the deposited data

How the results depend on the processing

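With 3 libraries a group the calls moved more than the values. With 1 library left out, in edgeR or DESeq2, the log2 fold change of Flnc ran from -2.64 to -2.01. The median log2 fold change ran from -0.0020 to 0.30 for integrin subunits, from 0.18 to 0.27 for adaptors and from 0.097 to 0.16 for the other adhesion genes, and the median of adaptors minus that of integrins from -0.12 to 0.27. Higher calls ran from 0 to 3, from 0 to 10 and from 0 to 31 in these lists, and lower calls from 0 to 2 for integrins and from 0 to 2 for the other adhesion genes. Over all genes the share called higher ran from 0.00601% to 7.97%. In edgeR, leaving out any library but FlncgKO replicate 3 left 0 members called. Over all genes, edgeR then called 1, 1 and 95 higher without control replicates 1, 2 and 3. Without FlncgKO replicates 1 and 2 it called 24 and 37. Without FlncgKO replicate 3, 12 members were higher and 1 lower, with 989 genes higher in all, where 170 were with all libraries. DESeq2 called Bcar1, Itgav, Lims2, Tln1, Vasp and Zyx whichever library was left out. Of these, Bcar1, Tln1 and Zyx were also called by DESeq2 with the Y-linked covariate, and Itgav, Lims2 and Vasp were not. The Y-linked level differed between the groups, and within FlncgKO replicate 1 stood apart from replicates 2 and 3. Fits with this covariate rest largely on that library, so a call kept or lost with it is no measure of robustness.

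DESeq2 on all libraries gave -2.22 for Flnc, past the threshold, 4 higher and 1 lower integrins, 10 higher adaptors, and 20 higher and 1 lower other adhesion genes. With no filter on low counts edgeR called 1 integrin higher and 1 lower, 5 adaptors and 9 other genes higher, and with 10 counts required in every library 1 integrin and 8 other genes higher. Over all genes these 2 fits called 1.37% and 1.47% higher, beside 1.06% with the filter first described. Total counts in place of TMM moved the median of the other genes to 0.11, and neither this scaling nor RLE changed which members edgeR called. With offsets for transcript length the medians were 0.17 for integrins and 0.26 for adaptors, their difference was 0.091, and 1 adaptor (Src) and 0 other genes were higher, where 0.393% of all genes were. DESeq2 with these offsets gave -2.21 for Flnc, medians of 0.17 and 0.26 with a difference of 0.091, 3 integrins higher and 1 lower, 8 adaptors higher, and 17 other genes higher and 1 lower. Over all genes it called 903 higher (5.63%) and 343 lower. With the Y-linked level as a covariate the medians were 0.16 for adaptors and 0.088 for other genes, and 0 adaptors and 0 other genes were called, as were 0 of all genes. DESeq2 with that covariate gave -2.60 for Flnc, medians of 0.16 and 0.084, and 5 adaptors and 12 other genes higher, where 1.49% of all genes were. The causes of these changes were not tested.

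The replicate numbers were not taken as pairs. Same-numbered libraries correlated at 0.043, 0.571 and 0.605 in their deviations from the group means, and control replicate 1 correlated best with FlncgKO replicate 2, at 0.192. With the replicate block edgeR called 2 integrins (Itga1 and Itgav), 4 adaptors (Bcar1, Src, Tln1 and Zyx) and 11 other adhesion genes higher, and 512 genes higher in all.

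Some members called by neither tool changed sign, and not all were near 0: Itgb4, Itga8 and Itga7 had 0.47, 0.38 and 0.24 with all libraries. With 1 library left out, log2 fold changes ran from -0.15 to 0.089 for Itga10, -0.38 to 0.32 for Itga11, -0.10 to 0.38 for Itga7, -0.089 to 0.61 for Itga8, -0.084 to 0.10 for Itga9, -0.33 to 1.15 for Itgb4, -0.0081 to 0.13 for Itgb5, -0.064 to 0.080 for Parvb and -0.33 to 0.0085 for Tns1. With the Y-linked covariate edgeR and DESeq2 gave 0.19 and 0.18 for Itga10, -0.19 and -0.19 for Itga7, -0.38 and -0.38 for Itga8, -0.092 and -0.095 for Itgb5, -0.056 and -0.059 for Parva, 0.12 and 0.11 for Parvb, -0.12 and -0.12 for Pxn and -0.15 and -0.16 for Tns2. With length offsets they gave 0.054 and 0.050 for Itga9, -0.038 and -0.027 for Itgb4 and 0.28 and 0.27 for Parvb. For Itga11, Itgb7 and the 2 members not tested the low counts limit what can be seen.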
